A study of Homo sapiens with 24 samples.

Results

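Interferon-stimulated genes are the genes that a cell switches on when interferon binds its receptors. The list here holds 39 of them, from 6 roles, and 38 were measured among 19775 genes in all. RIG-I, listed under its older symbol DDX58, was found as RIGI. STAT2 was not analysed here, because the probe annotation used holds no probe set for it alone. The genes were chosen by name, and each is given by its probe set with the highest mean over all arrays.

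Messenger RNA of RT112, a human bladder cancer line long kept in culture, was measured on Affymetrix 3′ expression arrays. Each line carried a doxycycline-inducible short hairpin RNA, a short RNA that directs the cell to destroy a matching mRNA. The labels name 3 lines with hairpins against the growth factor receptor FGFR3, called FGFR3 shRNA 2-4, 4-1 and 6-16, and 1 control line with a hairpin against EGFP, a jellyfish gene. Each line was labelled plus doxycycline (1 µg/ml for 48 h) or no doxycycline, all in medium with 1% serum, which gave 8 labelled groups of 3 arrays and 24 arrays. Nothing in the labels says that the 3 replicates were separate cultures, so p-values measure only the spread between these arrays. An array has no read depth, and the number of arrays limits the precision.

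As background, type I and type III interferons signal through paired receptors and the kinases JAK1 and TYK2 to transcription factors, IRF9 among them, that bind the interferon-stimulated response element in target promoters. The proteins made include sensors of foreign RNA, enzymes that degrade or deplete what a virus needs, and the ubiquitin-like modifier ISG15. Epithelial cancer cell lines can also express many of these genes with no interferon added.

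The labels and the measured values went different ways on these arrays. FGFR3 itself changed by 0.15 ± 0.31 with doxycycline in the arrays labelled 2-4, by -0.24 ± 0.31 in those labelled 4-1, by 0.42 ± 0.31 in those labelled 6-16 and by 0.16 ± 0.31 in those labelled EGFP (log2, limma standard error, n = 3 arrays a group), and none of the 4 changes passed limma's test. Nearness of arrays was read as correlation over all genes, with 1 probe set a gene and each gene's mean subtracted. For 22 of the 24 arrays, the 2 nearest lay in the same set and on the same TACC3 side, as defined below by marker genes. The sets were cut from expression on these same arrays, so this nearness is no independent support for them. The exceptions, labelled 4-1 no doxycycline replicate 3 and 6-16 plus doxycycline replicate 3, were TACC3-high arrays with high GAS1. For labels the criterion was looser, and 3 arrays had at least 1 of their 2 nearest in their own labelled group. Every statement on a labelled group below therefore concerns arrays as labelled. The median log2 value of an array lay between 6.98 and 7.08, and no pair of arrays held identical values.

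In the labelled comparisons, 0 of the 38 interferon-stimulated genes passed limma with Benjamini-Hochberg adjustment at 0.05, as did 0 of all 19775 genes, so that 0% of genes were called in each of the 6 comparisons. The members' median change with doxycycline was 0.21 in the 2-4 line, where 30 of 38 lay above 0, and -0.12 in the 4-1 line, where 8 of 38 did. It was 0.07 in the 6-16 line, with 28 of 38 above 0, and -0.02 in the EGFP line, with 17 of 38 above 0. Over all genes the median change was -0.0052 for 2-4, -0.0078 for 4-1, 0.028 for 6-16 and 0.023 for EGFP. The 4-1 median was 0.049 without the array labelled 4-1 plus doxycycline replicate 2 and -0.33 without 4-1 plus doxycycline replicate 1, so its sign rests on single arrays. With the replicate number as a block, limma called 1 gene in the 6-16 line, which was no member of the list.

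At an unadjusted p under 0.05, limma called 1 member in the 2-4 line, beside 2.46% of all genes, and 0 members in the 4-1 line, beside 1.13%. It called 1 member in the 6-16 line, beside 7.78% of all genes, and 0 in the EGFP line, beside 2.55%. These single genes, named after their values were seen, were IFIT5 in the 2-4 line (log2 change 0.21, limma adjusted p = 0.999) and HERC5 in the 6-16 line (0.36, limma adjusted p = 0.604). The smallest limma adjusted p of any member was 0.999 for 2-4, 1 for 4-1, 0.604 for 6-16 and 0.975 for EGFP.

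TRIM22, an antiviral E3 ubiquitin ligase of the tripartite motif family, had the lowest change in the 4-1 and EGFP lines and the highest in the 6-16 line. In the 4-1 line it lay at 5.45, 6.03 and 9.31 on the arrays labelled plus doxycycline, against 6.99, 8.71 and 9.37 on those labelled no doxycycline, a log2 change of -1.43 ± 1.23 (limma SE, adjusted p = 1). In the 6-16 line it lay at 5.74, 6.76 and 8.63 plus doxycycline, against 5.82, 6.11 and 6.46 without, a log2 change of 0.91 ± 1.23 (limma SE, adjusted p = 0.869). In the EGFP line it lay at 5.53, 5.75 and 9.24 plus doxycycline, against 6.36, 9.24 and 9.27 without, a log2 change of -1.46 ± 1.23 (limma SE, adjusted p = 0.975). In all 3 lines the labelled groups overlapped, and arrays of 1 group differed by more than the group means did. Leaving out each array in turn moved the change between -2.62 and -0.69 in the 4-1 line, between 0.12 and 1.56 in the 6-16 line and between -2.66 and -0.80 in the EGFP line. The lowest 6-16 value came without plus doxycycline replicate 2, the lowest 4-1 value without plus doxycycline replicate 1 and the lowest EGFP value without plus doxycycline replicate 3.

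IFI27, a small interferon-induced protein of mitochondria, and IFI6, a related membrane protein that blocks cell death, showed the same kind of spread. In the EGFP line IFI27 was 8.22, 8.22 and 8.40 on the arrays labelled plus doxycycline, against 5.29, 8.20 and 8.30 on those labelled no doxycycline, a log2 change of 1.01 ± 0.89 (limma SE, adjusted p = 0.975). One array, labelled EGFP no doxycycline replicate 2, carried the low value, and without it the change was 0.03. IFI6 was 9.32, 9.42 and 9.83 plus doxycycline, against 6.65, 9.51 and 9.75 without, and its log2 change of 0.89 became -0.11 without the same array.

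IFI44L, an interferon-induced gene next to IFI44, had the highest change in the 2-4 line. It was 6.13, 6.64 and 8.25 on the arrays labelled plus doxycycline, against 5.84, 6.08 and 6.75 on those labelled no doxycycline, a log2 change of 0.79 ± 0.70 (limma SE, adjusted p = 0.999). Without the array labelled 2-4 plus doxycycline replicate 2 the change was 0.16. The other members at the ends of these comparisons were SAMD9 (-0.19), OAS1 (-0.15) and IFI6 (0.78) in the 2-4 line, and IFIT1 (-0.46), OAS3 (0.26) and EPSTI1 (0.49) in the 4-1 line. In the 6-16 line they were CMPK2 (-0.34), OAS3 (-0.31) and IFIT1 (0.73), and in the EGFP line BST2 (-0.78). All are log2 changes that did not pass limma's test.

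Set against the EGFP line, the mean doxycycline change of the 3 FGFR3 lines gave a median difference of 0.09 over the members, with 26 of 38 above 0, beside -0.02 over all genes. The highest differences were those of TRIM22 (1.52 ± 1.43) and BST2 (0.78 ± 0.52), and the lowest those of IFI27 (-0.85 ± 1.03) and IFI6 (-0.64 ± 0.96), as limma estimates with their standard errors and an adjusted p of 1. Without the array labelled EGFP no doxycycline replicate 2, IFI27 stood at 0.14, IFI6 at 0.35 and the member median at 0.35. Over all arrays left out in turn, TRIM22 ran from 0.87 to 2.72 and BST2 from 0.555 to 1.197, both highest without EGFP plus doxycycline replicate 3. At an unadjusted p under 0.05, limma called 1 member, IRF7 at -0.32, beside 2.16% of all genes. IRF7 signal was low, from 5.86 to 6.35 over the arrays, which is below every array median. Without doxycycline, the FGFR3 lines minus the EGFP line gave a member median of -0.07, with 14 of 38 above 0, and 0 members at that unadjusted threshold beside 2.91% of all genes. TRIM22 (-1.21) and IFI44L (-0.89) were lowest there, and IFI27 (0.40) and IRF1 (0.15) highest. Both comparisons use the EGFP arrays that also give the EGFP change, so the 3 are not independent.

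**Figure D1:**
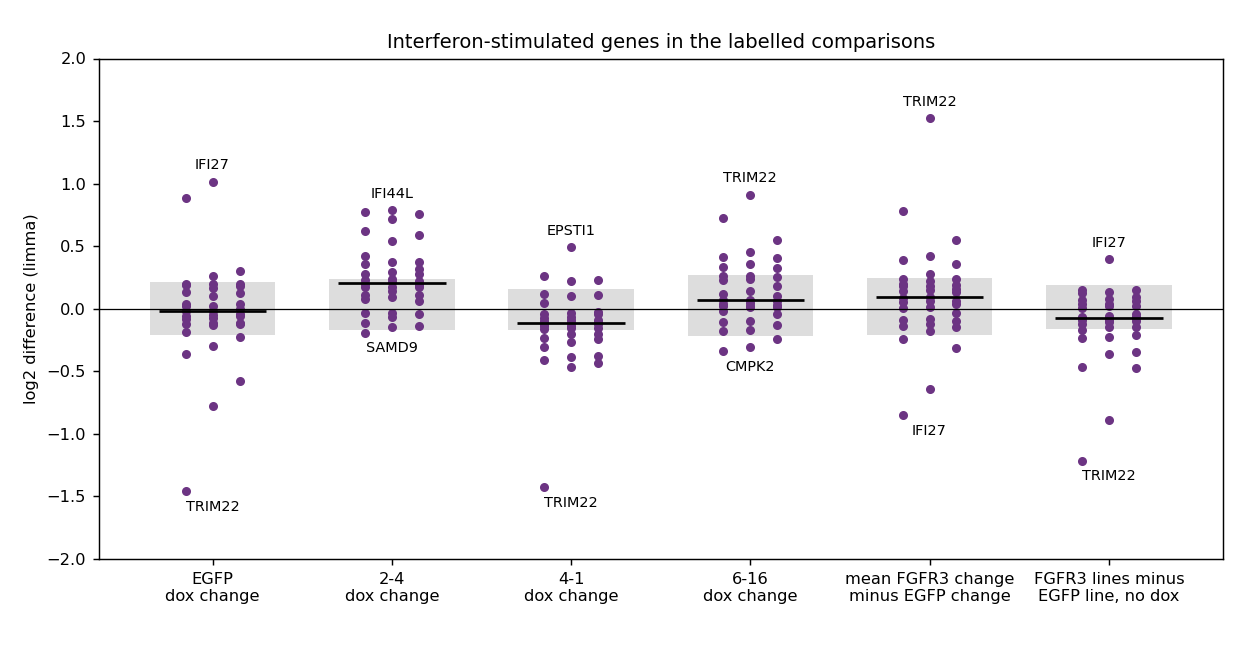
Log2 difference (y axis, limma) of each of the 38 interferon-stimulated genes (points) in the 6 labelled comparisons (x axis), with the members' median as a black line and the 5th to 95th percentile of all genes as a grey band. Medians run from -0.12 in the 4-1 line to 0.21 in the 2-4 line, and TRIM22 lies at an end of the members in 5 of the 6 comparisons.

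Little of the members' spread lay between labelled groups. The median SD within labelled groups was 0.32 over the members and 0.13 over all genes, and the SD over all 24 arrays without regard to label was 0.31 and 0.13. A median of 21.9% of the sum of squares lay between labelled groups for a member and 26.4% for a gene in general. With 8 groups of 3 arrays, labels unrelated to the values would also give such a share. These figures are therefore no measure of what the labels explain. TRIM22 ran from 5.45 to 9.40 over the arrays, IFI27 from 5.29 to 8.60, IFI6 from 6.65 to 9.83 and IFI44L from 5.40 to 8.41.

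The arrays were therefore also described by measured levels of 4 genes. TACC3, a spindle protein that in RT112 is fused to FGFR3, lay at or below 11.43 on 9 arrays (TACC3-low) and at or above 11.82 on 15 (TACC3-high), on either side of a threshold of 11.6. Within these, 6 arrays had ARMCX3 below 7, 6 had FGFR3 below 11.6 and 6 had GAS1 above 7.5, each with 3 TACC3-low and 3 TACC3-high arrays, and 6 TACC3-high arrays had none of these marks. ARMCX3 encodes a mitochondrial outer membrane protein and GAS1 a cell surface protein of growth arrest. These sets are made from measured values and mix labels: the 3 TACC3-low arrays with low FGFR3, for example, were labelled EGFP no doxycycline, 2-4 plus doxycycline and 4-1 plus doxycycline. No treatment is assigned to them, and they are described array by array with no mean and no test. In RNA from a whole culture, a change in the share of cells that express a gene and a change per cell cannot be told apart.

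Over the 3 marked sets, 16 of the 38 genes had every TACC3-low array above every TACC3-high array within each set, beside 7.63% of all genes, and 3 had every TACC3-low array below, beside 6.67%. Set by set, the counts above were 26 of 38 in the ARMCX3-low set, beside 21.8% of all genes, 25 in the FGFR3-low set, beside 24.1%, and 19 in the GAS1-high set, beside 14.2%. The counts below were 3 beside 14.2%, 5 beside 20.9% and 4 beside 19.2%. Taking all 9 TACC3-low arrays against all 15 TACC3-high arrays, IRF9, MX1, MX2, BST2 and TRIM22 lay above without overlap, beside 2.90% of all genes, and OAS3 lay below, beside 3.09%. With each array's median subtracted, 10 genes lay above in each set, beside 5.10% of all genes, and the same 3 lay below, beside 5.76%. Of the 16 genes, 9 were among these 10, and RIGI, IFIH1, MX1, RSAD2, SAMD9, UBE2L6 and PARP14 were not, while OASL was added. Over all arrays with medians subtracted, MX2, BST2 and TRIM22 lay above, beside 2.04% of all genes, and 0 genes of the list lay below, beside 2.54%.

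**Figure D2:**
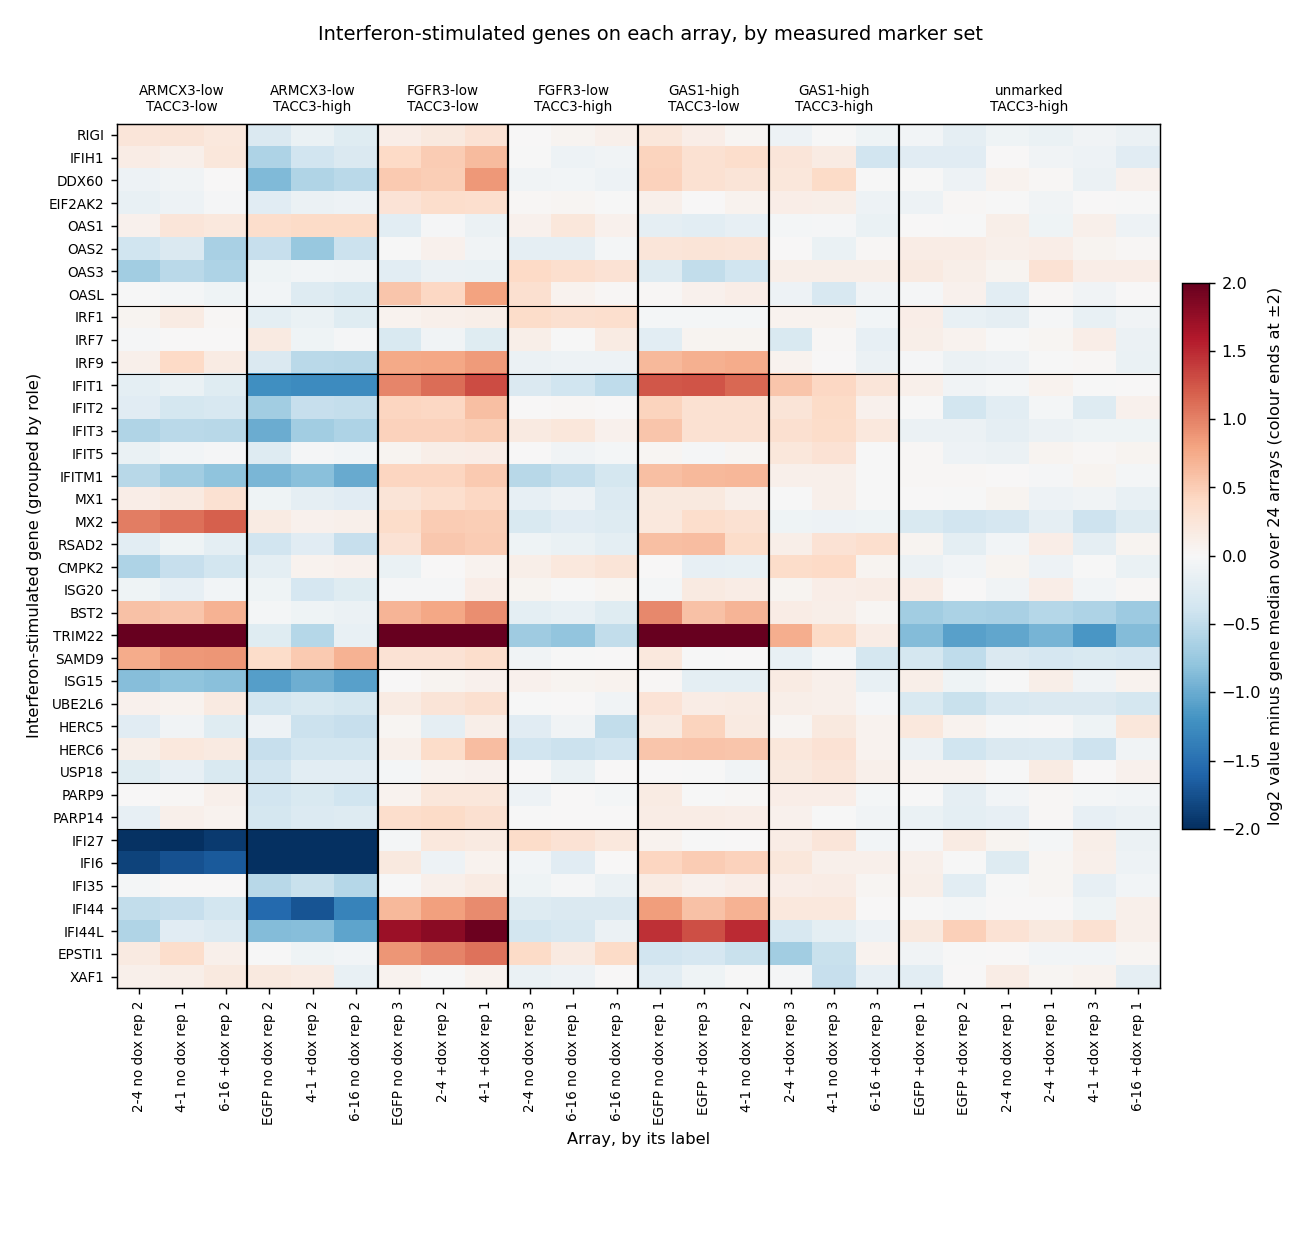
Log2 value of each interferon-stimulated gene (rows, grouped by role) minus its median over the 24 arrays, on each array (columns, named by label, with +dox for plus doxycycline), with arrays ordered by measured marker set and colour ending at 2 log2 units either way. TRIM22 is high on all 9 TACC3-low arrays, and IFI27 and IFI6 are low on all 6 ARMCX3-low arrays.

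Among the 8 sensors, RIGI and IFIH1 lay above and OAS1 and OAS3 below in each marked set. With array medians subtracted, RIGI and IFIH1 overlapped in at least 1 set and OASL lay above in each. RIGI, which detects viral RNA with a triphosphate end, read 8.82, 8.86 and 8.87 on the TACC3-low arrays, against 8.32, 8.38 and 8.48 on the TACC3-high arrays of the ARMCX3-low set. In the other sets it differed by as little as 0.03 and 0.04 between the nearest arrays, and its other 2 probe sets overlapped in the GAS1-high set. IFIH1, the long double-stranded RNA sensor MDA5, read 8.07, 8.17 and 8.30 against 7.56, 7.59 and 7.66 in the FGFR3-low set.

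OAS1 and OAS3 make the short oligoadenylates that switch on RNase L, and both lay lower on the TACC3-low arrays. OAS3 read 9.45, 9.53 and 9.61 on TACC3-low arrays against 10.05, 10.07 and 10.09 on TACC3-high arrays of the ARMCX3-low set, and 9.94, 10.01 and 10.02 against 10.42, 10.48 and 10.54 in the FGFR3-low set. In the GAS1-high set it read 9.66, 9.74 and 9.88 against 10.25, 10.26 and 10.26. In each set the arrays did not overlap. OAS1 was below in each set by its brightest probe set, and not by the mean of its probe sets. The brightest probe set of OAS2 lay above in the GAS1-high set, and that of OASL, which is not an active synthetase, in the FGFR3-low and GAS1-high sets. By the mean of their probe sets, both OAS2 and OASL lay above in each set.

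Of the 3 transcription factors, IRF9, the DNA-binding subunit of the interferon-activated complex, lay above in each set. It read 9.93, 9.999 and 10.23 on TACC3-low arrays against 9.27, 9.29 and 9.53 on TACC3-high arrays of the ARMCX3-low set. In the FGFR3-low set it read 10.58, 10.60 and 10.68 against 9.72 on each of the 3 TACC3-high arrays, and in the GAS1-high set 10.48, 10.53 and 10.56 against 9.71, 9.84 and 9.90. IRF1, an interferon gamma response factor, went opposite ways, with 9.83, 9.87 and 9.97 against 9.57, 9.62 and 9.68 in the ARMCX3-low set, and 9.88, 9.91 and 9.93 against 10.12, 10.15 and 10.18 in the FGFR3-low set. IRF7, which amplifies interferon production, lay below in the FGFR3-low set and overlapped in the others. Its signal lay below the array median on every array.

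Of the 13 antiviral effectors, 8 lay above in each set and 1 below. TRIM22 was the most separated of all 38 genes. It read 8.63, 8.71 and 8.78 on TACC3-low arrays against 6.03, 6.36 and 6.46 on TACC3-high arrays of the ARMCX3-low set, and 9.27, 9.31 and 9.40 against 5.82, 5.89 and 6.11 in the FGFR3-low set. In the GAS1-high set it read 9.24, 9.24 and 9.37 against 6.76, 6.99 and 7.33, and the 6 unmarked arrays ran from 5.45 to 5.75 with a median of 5.62. The smallest differences between any TACC3-low and any TACC3-high array were 2.17, 3.16 and 1.91 log2 units in the 3 sets.

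IFIT1, which binds viral RNA that lacks cap methylation, read 8.24, 8.28 and 8.34 on TACC3-low arrays against 7.21, 7.22 and 7.25 on TACC3-high arrays of the ARMCX3-low set. In the FGFR3-low set it read 9.45, 9.59 and 9.78 against 7.97, 8.07 and 8.19, and in the GAS1-high set 9.63, 9.71 and 9.73 against 8.71, 8.88 and 9.02. The nearest arrays were thus at least 0.60 log2 units apart in every marked set. Its relatives IFIT2 and IFIT3 lay above in the ARMCX3-low and FGFR3-low sets and overlapped in the GAS1-high set, but lay above in each set by the mean of their probe sets.

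BST2, or tetherin, which holds budding virions at the cell surface, read 8.33, 8.37 and 8.48 on TACC3-low arrays against 7.66, 7.70 and 7.74 on TACC3-high arrays of the ARMCX3-low set. It read 8.46, 8.55 and 8.71 against 7.54, 7.59 and 7.63 in the FGFR3-low set and 8.37, 8.46 and 8.74 against 7.83, 7.90 and 7.93 in the GAS1-high set. The unmarked arrays lay below all of these, between 7.06 and 7.21. MX2, a dynamin-like GTPase that restricts HIV, read 10.34, 10.42 and 10.51 against 9.40, 9.41 and 9.48 in the ARMCX3-low set, 9.68, 9.80 and 9.83 against 9.01, 9.06 and 9.09 in the FGFR3-low set, and 9.52, 9.61 and 9.66 against 9.22, 9.23 and 9.23 in the GAS1-high set.

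IFITM1, a membrane protein that hinders virus entry, was separated narrowly in the ARMCX3-low set, with 8.46, 8.57 and 8.71 on TACC3-low arrays against 8.25, 8.36 and 8.44 on TACC3-high arrays. It was separated widely in the FGFR3-low set, with 9.70, 9.70 and 9.80 against 8.71, 8.79 and 8.92. MX1, RSAD2 (viperin) and SAMD9 were the other effectors above in each set, and in each of them the nearest arrays of at least 1 set were under 0.05 log2 units apart. All 3 lost the separation in at least 1 set with array medians subtracted, and RSAD2 and SAMD9 also with the mean of probe sets. CMPK2, a mitochondrial nucleotide kinase encoded beside RSAD2, lay below in each set, with 8.60, 8.75 and 8.85 against 9.02, 9.29 and 9.31 in the ARMCX3-low set.

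In the ISG15 system, UBE2L6, the E2 enzyme that passes ISG15 to its targets, and HERC6, a HECT-type ligase, lay above in each set, of which HERC6 did so with array medians subtracted too. HERC6 read 8.01, 8.07 and 8.11 on TACC3-low arrays against 7.43, 7.53 and 7.53 on TACC3-high arrays of the ARMCX3-low set. HERC5, another gene of this system, overlapped in each set. ISG15 itself lay above in the ARMCX3-low set alone, at 9.88, 9.90 and 9.94 against 9.63, 9.65 and 9.76, and overlapped in the FGFR3-low set at 10.74, 10.79 and 10.82 against 10.79, 10.81 and 10.81. USP18, which removes ISG15 and dampens receptor signalling, lay below in the GAS1-high set and overlapped in the others. PARP14 lay above in each set, though not with array medians subtracted, and its family member PARP9 lay above in the ARMCX3-low and FGFR3-low sets.

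**Figure D3:**
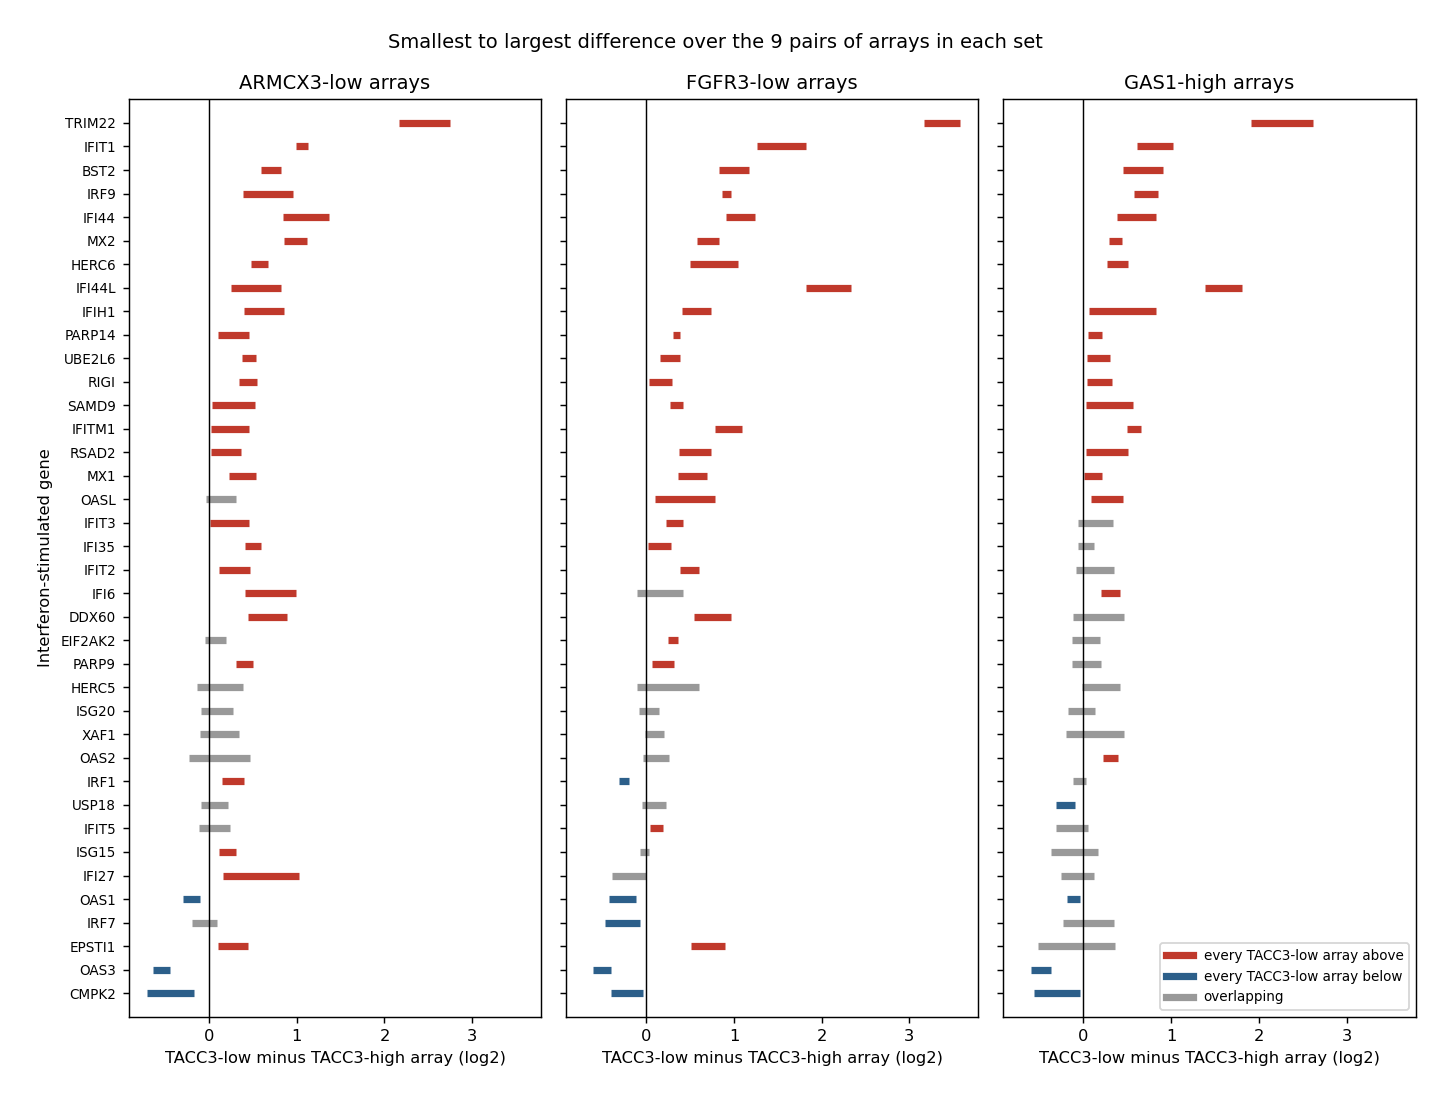
For each interferon-stimulated gene (y axis), the bar runs from the smallest to the largest log2 difference over the 9 pairs of a TACC3-low and a TACC3-high array in each marked set (x axis). Bars of TRIM22 start at 2.17, 3.16 and 1.91, while those of OAS3 and CMPK2 lie wholly below 0 in all 3 sets.

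Among the other 7 interferon-induced genes, IFI44 and IFI44L lay above in each set. IFI44 read 7.72, 7.75 and 7.85 on TACC3-low arrays against 6.48, 6.66 and 6.87 on TACC3-high arrays of the ARMCX3-low set, 8.86, 9.02 and 9.16 against 7.92, 7.93 and 7.95 in the FGFR3-low set, and 8.79, 8.91 and 9.04 against 8.22, 8.41 and 8.42 in the GAS1-high set. IFI44L read 5.84, 6.18 and 6.23 against 5.40, 5.58 and 5.60 in the ARMCX3-low set, 8.16, 8.25 and 8.41 against 6.08, 6.13 and 6.34 in the FGFR3-low set, and 7.73, 7.92 and 7.94 against 6.13, 6.26 and 6.35 in the GAS1-high set. IFI44L thus separated least in the ARMCX3-low set, where it was also lowest.

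IFI27 and IFI6 were lowest on the 6 ARMCX3-low arrays, whatever their TACC3 level. IFI27 read 6.18, 6.26 and 6.32 on the TACC3-low and 5.29, 5.93 and 6.02 on the TACC3-high arrays of the ARMCX3-low set, while the other 18 arrays lay between 8.11 and 8.60. IFI6 read 7.47, 7.58 and 7.64 and 6.65, 7.05 and 7.07 on the same arrays, while the other 18 lay between 9.06 and 9.83. Taking the 6 ARMCX3-low arrays against the other 18, OAS2, IFIT3, ISG15, USP18, IFI27, IFI6 and IFI44 lay below without overlap, which is 7 of 38 beside 2.39% of all genes, and SAMD9 lay above, beside 2.14%. For the 6 FGFR3-low arrays against the other 18, 0 members lay above and 0 below, beside 0.207% and 0.167% of all genes. For the 6 GAS1-high arrays the counts were 0 above and 0 below, beside 0.263% and 0.116%.

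EPSTI1, an interferon-induced gene named for epithelial stromal interaction, lay above in 2 sets and not in the third. It read 6.79, 6.87 and 7.05 on TACC3-low arrays against 6.60, 6.64 and 6.68 on TACC3-high arrays of the ARMCX3-low set and 7.58, 7.68 and 7.78 against 6.88, 7.07 and 7.08 in the FGFR3-low set. In the GAS1-high set it read 6.24, 6.30 and 6.36 against 6.00, 6.25 and 6.76, where the highest value came from the array labelled 6-16 plus doxycycline replicate 3. DDX60, a helicase that assists RIG-I, read 8.24, 8.28 and 8.35 against 7.46, 7.74 and 7.80 in the ARMCX3-low set and 8.83, 8.86 and 9.22 against 8.25, 8.28 and 8.29 in the FGFR3-low set, and overlapped in the GAS1-high set at 8.61, 8.65 and 8.80 against 8.34, 8.57 and 8.72.

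**Figure D4:**
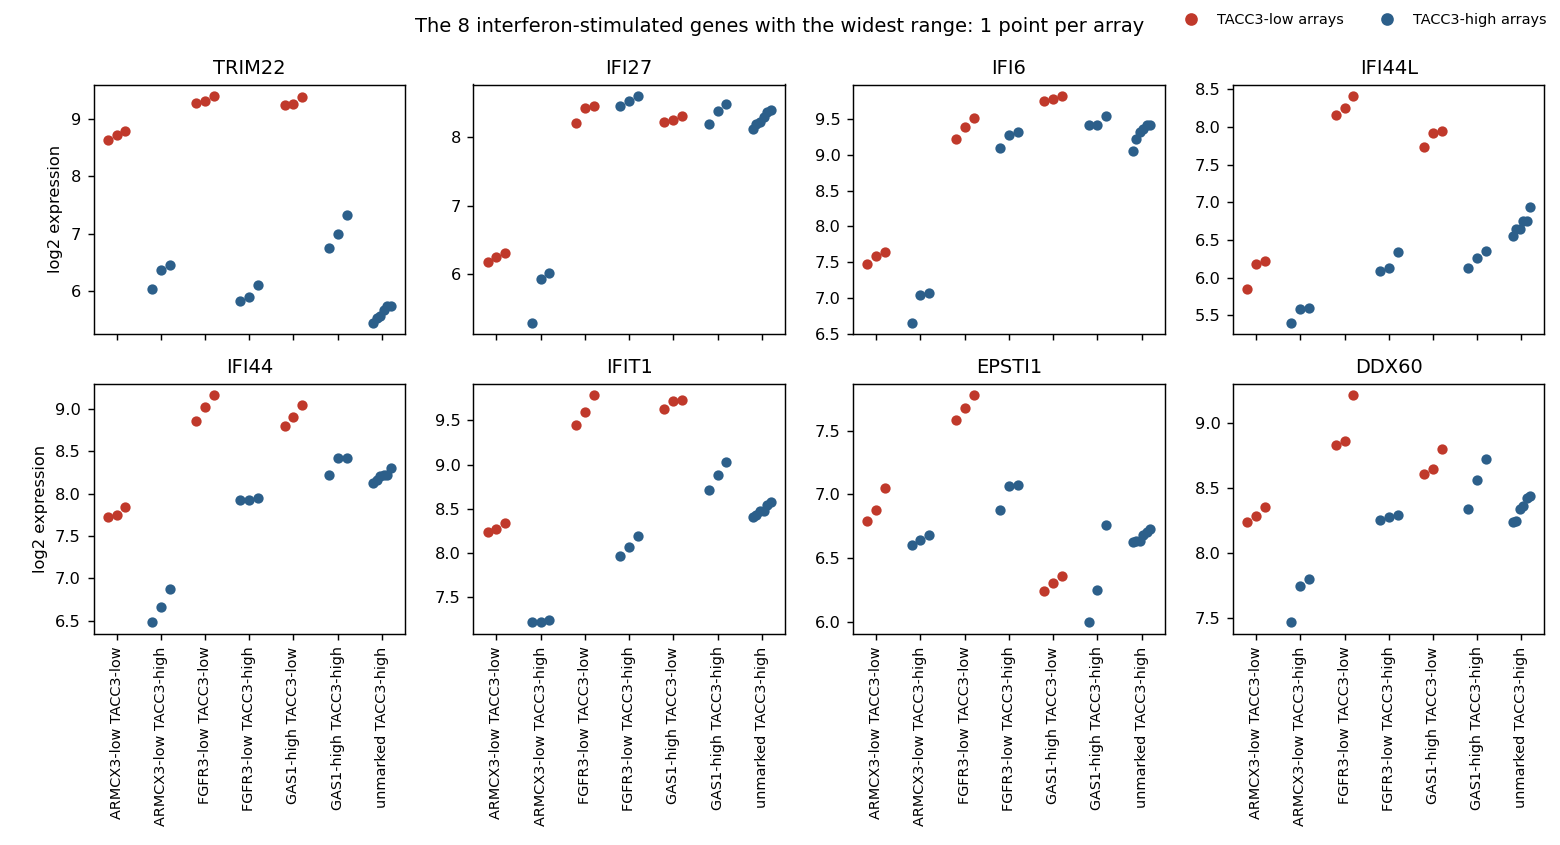
Log2 expression (y axis) of the 8 interferon-stimulated genes with the widest range, 1 point per array, by measured marker set (x axis), with TACC3-low arrays in red and TACC3-high arrays in blue. TRIM22, IFI44L, IFI44 and IFIT1 lie higher in red within each marked set, and IFI27 and IFI6 are lowest on the ARMCX3-low arrays.

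The 6 unmarked arrays gave a further comparison for the marked TACC3-low arrays. In the FGFR3-low set, 23 of 38 genes had every TACC3-low array above every unmarked array, beside 15.5% of all genes, and 1 lay below, beside 18.7%. In the GAS1-high set, 21 lay above, beside 13.0%, and 3 below, beside 17.0%. In the ARMCX3-low set, 11 lay above, beside 19.2%, and 12 below, beside 18.7%. The TACC3-high arrays of the ARMCX3-low set had 5 members above every unmarked array, beside 9.16% of all genes, and 22 below, beside 13.8%. Those of the FGFR3-low set had 10 above, beside 7.39%, and 5 below, beside 17.2%. Those of the GAS1-high set had 8 above, beside 4.33%, and 2 below, beside 3.15%. All these comparisons share the unmarked arrays.

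Genes that act upstream of the list were read the same way. Of 18 interferon ligand genes, 0 lay above and 0 lay below in all 3 marked sets at once. The shares of all genes were 7.63% and 6.67%. Taken set by set, 7 lay below in the FGFR3-low set, beside 20.9% of all genes, and 1 in the ARMCX3-low set, beside 14.2%. In the GAS1-high set 1 lay above, beside 14.2%. On every array, 16 of the 18 were below the array median, while the other 2, IFNA17 and IFNL2, were above it. IFNB1, the type I interferon most cells make first, ran from 4.98 to 5.61 over the 24 arrays. Of 11 receptor and kinase genes, IL10RB alone lay above in each set, beside 7.63% of all genes. It encodes a subunit of the type III interferon receptor. Set by set, 3 of the 11 lay above in the ARMCX3-low, 6 in the FGFR3-low and 2 in the GAS1-high set. These counts stand beside 21.8%, 24.1% and 14.2% of all genes. In each set 0 of the 11 lay below, beside 14.2%, 20.9% and 19.2%. Of 10 genes of nucleic acid sensing, TLR3, MAVS and IKBKE lay above in each set and IRF3 below (7.63% and 6.67% of all genes). Some of these separations were narrow. IKBKE had a lowest TACC3-low value of 8.2427 against a highest TACC3-high value of 8.2419 in the FGFR3-low set. For MAVS the same values were 11.11 and 11.07 in the ARMCX3-low set. TLR3, the endosomal receptor for double-stranded RNA, read 8.72, 8.82 and 8.86 on TACC3-low arrays against 7.98, 8.12 and 8.23 on TACC3-high arrays of the ARMCX3-low set, 9.25, 9.35 and 9.40 against 8.32, 8.46 and 8.48 in the FGFR3-low set, and 9.38, 9.41 and 9.48 against 8.69, 8.92 and 9.04 in the GAS1-high set.

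Markers of other cell types and of RNA quality were read on the same arrays. Of 10 leukocyte markers, 0 lay above and 0 below in all 3 marked sets at once, beside 7.63% and 6.67% of all genes. Set by set 0 lay above, while 2 lay below in the ARMCX3-low set, 2 in the FGFR3-low set and 1 in the GAS1-high set. These counts below stand beside 14.2%, 20.9% and 19.2% of all genes, and the counts above beside 21.8%, 24.1% and 14.2%. Of 7 fibroblast markers LUM alone lay above in each set, beside 7.63% of all genes, and 0 lay below, beside 6.67%. LUM ran from 12.84 to 13.56 over the 24 arrays. The median level of the leukocyte list, relative to each gene's own median, ran from -0.14 to 0.15 on the marked TACC3-low arrays and from -0.12 to 0.13 on the marked TACC3-high arrays. That of the fibroblast list ran from -0.13 to 0.11 and from -0.12 to 0.089 on the same arrays. Of 10 urothelial markers, CDH1, KRT19, GATA3 and UPK2 lay above in each set, beside 7.63% of all genes, and KRT18 below, beside 6.67%. Set by set, 4 lay above in each of the ARMCX3-low, FGFR3-low and GAS1-high sets, beside 21.8%, 24.1% and 14.2% of all genes. The counts below were 1, 4 and 5, beside 14.2%, 20.9% and 19.2%. KRT7, KRT8 and PPARG lay below in the FGFR3-low and GAS1-high sets. Above every array median were 9 of the 10 urothelial markers, 4 of the 7 fibroblast markers and 2 of the 10 leukocyte markers. Below every array median were 0, 1 and 3, in the same order. The median level of the urothelial list ran from 0.17 to 0.23 on the TACC3-low and from 0.024 to 0.079 on the TACC3-high arrays of the ARMCX3-low set, and overlapped in the other 2 sets. The part of these markers in the results was not tested. The 3′ minus 5′ log2 difference of the ACTB control probe sets ran from 1.01 to 1.17 on the TACC3-low and from 0.79 to 0.87 on the TACC3-high arrays of the ARMCX3-low set. It ran from 1.00 to 1.06 against 0.70 to 0.97 in the FGFR3-low set and from 0.79 to 0.95 against 0.70 to 0.91 in the GAS1-high set. The same difference for GAPDH ran from 0.37 to 0.42 against 0.26 to 0.29 in the ARMCX3-low set, from 0.35 to 0.38 against 0.22 to 0.29 in the FGFR3-low set and from 0.28 to 0.33 against 0.20 to 0.27 in the GAS1-high set. A larger 3′ minus 5′ difference marks less intact RNA. The differences were higher on every TACC3-low array in 2 of the 3 sets for ACTB and in all 3 for GAPDH. Their part in the results above was not tested.

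The promoters of 7 genes are shown because they cover the patterns above: IFIT1, IFI44L, BST2 and IFITM1 lay above in each marked set, OAS3 lay below, and IFI27 and IFI6 were low on the ARMCX3-low arrays. They are the 180 bases before the annotated start, from RefSeq on GRCh38.p14, 5′ to 3′ on the gene's strand, and capitals mark matches to 2 copies of GAAA with any 2 bases (NN) between them, the core of the interferon-stimulated response element, on either strand. The motif and the genes shown were chosen after the values and the matches had been seen.

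IFIT1: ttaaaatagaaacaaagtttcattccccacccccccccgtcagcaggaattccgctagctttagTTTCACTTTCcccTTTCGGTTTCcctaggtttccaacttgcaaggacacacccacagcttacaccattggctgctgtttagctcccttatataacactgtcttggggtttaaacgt
IFI44L: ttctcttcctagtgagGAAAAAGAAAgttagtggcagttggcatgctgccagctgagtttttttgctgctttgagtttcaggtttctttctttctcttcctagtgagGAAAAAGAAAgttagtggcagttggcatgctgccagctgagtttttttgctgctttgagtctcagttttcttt
BST2: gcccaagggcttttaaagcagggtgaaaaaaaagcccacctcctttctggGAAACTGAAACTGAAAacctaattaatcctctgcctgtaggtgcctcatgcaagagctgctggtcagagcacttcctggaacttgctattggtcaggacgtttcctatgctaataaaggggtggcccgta
IFITM1: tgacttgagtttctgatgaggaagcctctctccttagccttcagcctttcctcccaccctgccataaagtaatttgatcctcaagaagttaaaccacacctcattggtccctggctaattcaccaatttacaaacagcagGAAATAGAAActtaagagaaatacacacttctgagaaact
OAS3: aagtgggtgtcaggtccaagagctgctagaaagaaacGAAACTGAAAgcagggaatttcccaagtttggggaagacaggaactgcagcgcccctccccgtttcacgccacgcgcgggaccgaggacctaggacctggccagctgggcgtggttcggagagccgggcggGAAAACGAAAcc
IFI27: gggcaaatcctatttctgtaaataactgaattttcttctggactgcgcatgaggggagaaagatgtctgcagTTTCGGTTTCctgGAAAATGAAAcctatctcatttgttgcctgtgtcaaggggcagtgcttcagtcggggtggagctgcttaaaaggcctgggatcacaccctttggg
IFI6: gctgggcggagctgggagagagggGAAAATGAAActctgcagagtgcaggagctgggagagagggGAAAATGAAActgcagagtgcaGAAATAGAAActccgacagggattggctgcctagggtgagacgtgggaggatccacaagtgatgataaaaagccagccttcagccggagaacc

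The windows lie, for IFIT1 at chr10:89392443-89392622 (plus strand), IFI44L at chr1:78620268-78620447 (plus strand), BST2 at chr19:17405631-17405810 (minus strand), IFITM1 at chr11:313860-314039 (plus strand), OAS3 at chr12:112938294-112938473 (plus strand), IFI27 at chr14:94110556-94110735 (plus strand) and IFI6 at chr1:27672193-27672372 (minus strand). Matches on the opposite strand read TTTC, any 2 bases and TTTC, as both in IFIT1 and 1 of the 2 in IFI27 do. The 2 matches in BST2 overlap. In windows of 300 bases around the start, the motif was present in 22 of the 31 members with a window, against 4.38% of the 27305 genes in the table and 3.57% of its 35116 windows. Among members above in each marked set it was present in 10 of 14, among those below in 1 of 3 and among the rest in 11 of 14. TRIM22 and MX2 had no window in the table. A match is a description of the sequence and not of binding.

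Members with several probe sets allowed a check of the values. Of the 38 genes, 20 had more than 1 probe set, with 25 further probe sets. In 50 comparisons where the brightest probe set was separated between TACC3-low and TACC3-high arrays of a marked set, the other probe set was separated the same way in 22, overlapped in 28 and was separated the opposite way in 0. RIGI was read by a probe set whose name marks possible cross-hybridisation, and 11 members by probe sets shared between transcripts.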

How the data were processed

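The deposited table gives 1 log2 value for each of 54675 probe sets on each of 24 Affymetrix arrays. RMA and the affy package are named, without versions, in the submitters' processing notes, and the sources used here do not give the probe grouping. RMA includes quantile normalization, which removes a shift common to most genes. By the platform annotation 41097 probe sets had 1 symbol, and the 1801 with several and 11777 with none were not used. Of the named ones, 41043 matched RefSeq (GRCh38.p14) by Entrez identifier and 0 symbols changed. The probe set with the highest mean stood for a gene, with no filter on low values.

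limma 3.58.1 (R 4.3.3) fitted 8 labelled groups in 1 model over 19775 genes (16 residual and 3.13 prior degrees of freedom), with Benjamini-Hochberg adjustment over all genes and a threshold of 0.05, and was tested on simulated data. The deviations of same-numbered arrays with and without doxycycline correlated above 0.1 in 3 of 3 pairs in the 2-4 and 6-16 lines, 1 of 3 in the 4-1 line and 2 of 3 in the EGFP line (-0.53 to 0.61 over 12 pairs). The labels do not say what a number marks. Array sets were split by measured levels and described without a test. By the rule set for naming genes, values are given for the 8 members with the widest range. In each comparison they are given for the 2 highest and 2 lowest members, and other members are named by role. Outside that rule, and not fixed beforehand, are the array values of further members such as IRF9, BST2 and OAS3, and of TLR3, IFNB1 and LUM. So are the changes of IFIT5, HERC5 and IRF7 in the labelled comparisons. The largest changes of the upstream and marker lists are not listed per comparison. The members and lists were chosen with earlier results of these data known.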

Additional observations from a re-analysis of the deposited data

How the results depend on the processing

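Over the labelled comparisons, the alternatives were the mean of a gene's probe sets, its most variable probe set, a filter on low values (above 6 on 3 arrays), subtraction of array medians, the replicate number as a block, array weights, the arrays of 1 line alone and each array left out. With array weights, limma called 1291 genes in the 6-16 line, 1 of them a member (HERC5, log2 change 0.45, limma adjusted p = 0.0261, named after its value was seen). The replicate block called 1 gene there, as did the fit on that line alone. The block changed no other call. Array weights moved the member median to -0.22 in the EGFP line and to 0.28 in the difference between FGFR3 and EGFP lines. They also turned the sign of SAMD9 in the 2-4 line (0.0095), TRIM22 in the 6-16 line (-0.013), IFI6 in that difference (0.081) and IFI27 without doxycycline (-0.049). The cause was not tested.

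With each array left out, the member median ran from -0.23 to 0.086 in the EGFP line, from -0.33 to 0.049 in the 4-1 line, from -0.046 to 0.35 in the difference and from -0.26 to 0.068 without doxycycline. The arrays at the low end were EGFP no doxycycline replicate 2, 4-1 plus doxycycline replicate 1, EGFP no doxycycline replicate 1 and EGFP no doxycycline replicate 2, in that order, and EGFP no doxycycline replicate 2 gave the 0.35. Signs turned for IFI6 (-0.11 to 1.44) in the EGFP line, SAMD9 (-0.40 to 0.12) in the 2-4 line, IFIT1 (-1.11 to 0.17) in the 4-1 line, IFI27 (-1.37 to 0.14) and IFI6 (-1.20 to 0.35) in the difference, and IFI27 (-0.59 to 0.91) without doxycycline.

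For the array sets, subtracting array medians gave 12 members above in the GAS1-high set (9.02% of all genes), 10 above in each marked set (5.10%), 3 above and 0 below over all arrays (2.04% and 2.54%), and 0 above in the ARMCX3-low arrays against all others (1.54%). That last count was 2 with the mean of probe sets (2.45%) and 2 with the most variable probe set (2.13%). Splitting TACC3 at its widest gap, 11.05, gave 2 above and 2 below over all arrays (6.38% and 4.06%) and no value within the FGFR3-low and GAS1-high sets. Without the array labelled 6-16 plus doxycycline replicate 3, 9 members lay below in the GAS1-high set, beside 29.4% of all genes under that setting. Leaving out each array gave 4 to 9. The most variable probe set and the left-out arrays were chosen for these sets after seeing the data.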
